A study of Mus musculus with 4 samples.

Results

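The genes described here are *Ccl20*, *Ccl4* and *Il1a*, which encode 2 chemokines and a cytokine of the IL-1 family, in WT and *Areg*-/- Th9 cells. They are 3 of the 515 genes of the authors' table of WT against *Areg*-/- Th9 cells. They were chosen by symbol from a table that holds differing genes only, with their lower FPKM in *Areg*-/- cells already known, so their direction is a description and supports nothing else. Naïve CD4+ T cells of the C57BL/6 strain were taken from WT mice or from mice that lack *Areg*, the gene of amphiregulin, which binds the epidermal growth factor receptor EGFR. The mice were 6 to 12 weeks old and, by the methods, matched for age and sex. *Xist*, the RNA of the inactive X chromosome in females, had 15.5 FPKM in WT cells and 43.4 in *Areg*-/- cells, a log2 ratio of 1.49, and the part of donor sex in the values below was not tested. Both groups of cells were activated with antibodies to CD3 and CD28 and kept for 3 days under Th9 conditions, that is, in the presence of TGF-β1 and IL-4, and 2 samples of each genotype were sequenced. The deletion is carried by the whole mouse and not by T cells alone. The table names its WT group as given no doxycycline and says nothing on it for the knockout group. That group was treated here as the WT samples named in the labels, and every ratio below rests on that.

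The table gives 1 FPKM value per gene and genotype, that is, fragments scaled to transcript length and to the size of the library, with both samples of a genotype combined by the authors. No spread between samples, interval or test can therefore be given, and whether any difference below is larger than the spread between replicates is unknown. The depth of each sample is likewise unknown from these values. *Areg* itself is not among the listed genes, and so the genotype could not be checked on its target. Of 8 markers of CD4+ T cells 0 were listed, and of 6 genes of Th9 cells only *Il9*, with 3.82 FPKM in WT and 1.24 FPKM in *Areg*-/- cells, so the identity of the cells could not be checked either. Both sets of values are from RNA of whole cultures, in which fewer producing cells and less RNA per cell cannot be told apart.

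Chemokines are small secreted proteins that guide cells bearing the matching receptor. CCL20 attracts cells with CCR6, which include Th17 cells, regulatory T cells, B cells and dendritic cells, at mucosal surfaces. CCL4, also called MIP-1β, is released by activated T cells, NK cells and macrophages and attracts immune cells to sites of inflammation. IL-1α binds IL1R1 on many cell types, remains largely inside the cell or on its membrane until the cell is damaged, and is known to increase IL-9 in Th9 cultures. The genes of all of these proteins are induced upon activation, with transcription factors of the NF-κB family among their known regulators.

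*Ccl20* (ENSMUSG00000026166.14) lies on the plus strand of chromosome 1 of GRCm38, from 83116766 to 83119167, with 3 annotated transcripts and 3 exons in the longest. *Ccl4* (ENSMUSG00000018930.3) lies on the plus strand of chromosome 11 from 83662584 to 83664683, with 1 annotated transcript of 3 exons. *Il1a* (ENSMUSG00000027399.1) lies on the minus strand of chromosome 2 from 129299610 to 129309972, with 1 annotated transcript of 7 exons. No annotated gene overlaps *Ccl20* or *Ccl4*. *Il1a* is overlapped on the opposite strand by the noncoding gene *Gm14023*, from 129297370 to 129307826. The locus that the table gives for *Il1a*, from 129297370 to 129309972, spans both genes, whereas those of *Ccl20* and *Ccl4* match the annotated gene.

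Sequence shared with other genes differed between the members. Of the 1464 distinct stretches of 50 bases in *Ccl20* transcripts and of the 611 in the *Ccl4* transcript, 0 occurred on either strand in an annotated transcript of another gene. Of the 1925 such stretches of *Il1a*, 176, or 9.14%, were shared, all of them with *Gm14023*. Whether the authors counted by strand is not stated in the sources used here, and the value of *Il1a* is uncertain to the extent that reads of *Gm14023* were counted with it.

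Promoters were sought for all 3 members, and those of *Ccl20* and *Il1a* are shown because a window was found for these only. RefSeq windows on GRCm38.p6 matched 2 of the 3 members by symbol, and *Ccl4* was not matched. Each sequence below gives the 250 bases before the transcription start, 5′ to 3′ along the strand of the gene, with matches to the motifs of NF-κB or AP-1 in capitals. That of *Ccl20* is chr1:83116516-83116765 on the plus strand, and that of *Il1a* is chr2:129309973-129310222 on the minus strand.
Ccl20: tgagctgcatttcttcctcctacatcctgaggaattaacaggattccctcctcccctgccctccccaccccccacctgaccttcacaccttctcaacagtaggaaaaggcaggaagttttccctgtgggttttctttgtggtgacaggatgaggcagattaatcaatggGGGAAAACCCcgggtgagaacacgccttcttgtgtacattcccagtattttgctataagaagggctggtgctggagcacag
Il1a: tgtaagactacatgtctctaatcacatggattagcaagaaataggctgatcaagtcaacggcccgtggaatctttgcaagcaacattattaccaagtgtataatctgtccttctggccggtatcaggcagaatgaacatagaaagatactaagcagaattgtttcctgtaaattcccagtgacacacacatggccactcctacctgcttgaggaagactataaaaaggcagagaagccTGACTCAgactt

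The search covered these bases and the first 50 transcribed bases, on both strands. The NF-κB motif, GGGAN followed by NNNCC, was found once in the *Ccl20* window, at positions -81 to -72, counted back from -1 just before the start, and 0 times in that of *Il1a*. This motif was present in 20.7% of all 32851 RefSeq promoter windows of the same length. The AP-1 motif, TGANTCA, was found once in the *Il1a* window, at positions -12 to -6, and 0 times in that of *Ccl20*, and 7.81% of all windows held it. The NFAT core, GGAAA, occurred 3 times in the *Ccl20* window, once inside the NF-κB match, and 1 time in that of *Il1a*, but 61.3% of all windows held at least one. The hypoxia response core, ACGTG, occurred 0 times in either window and in 19.6% of all windows. These are matches of letters in a window and not binding sites, and the promoters of *Ccl20* and *Il1a* had no NF-κB or AP-1 match in common.

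The level of *Ccl20* was 8.96 FPKM in WT Th9 cells, as compared to 2.73 FPKM without Areg. Its level in *Areg*-/- cells was therefore 30.5% of that in WT, a 3.28-fold lower value and a log2 ratio of -1.71. *Il1a* had 1.18 FPKM in WT cells and 0.471 in *Areg*-/- cells, which is 39.8% of the WT level, or a log2 ratio of -1.33. *Ccl4* was the most abundant of these genes, with 59.0 FPKM in WT and 42.7 FPKM in *Areg*-/- cells. It kept 72.4% of its WT level, a log2 ratio of -0.47, and so had the smallest relative difference of the 3 genes. Of the 3 members, 2 were lower by more than 2-fold, a limit that 9.90% of the listed genes passed in this direction, and 30.9% of the listed genes were lower at all. Since the members were picked from this comparison, nothing is read from these shares.

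**Figure D1:**
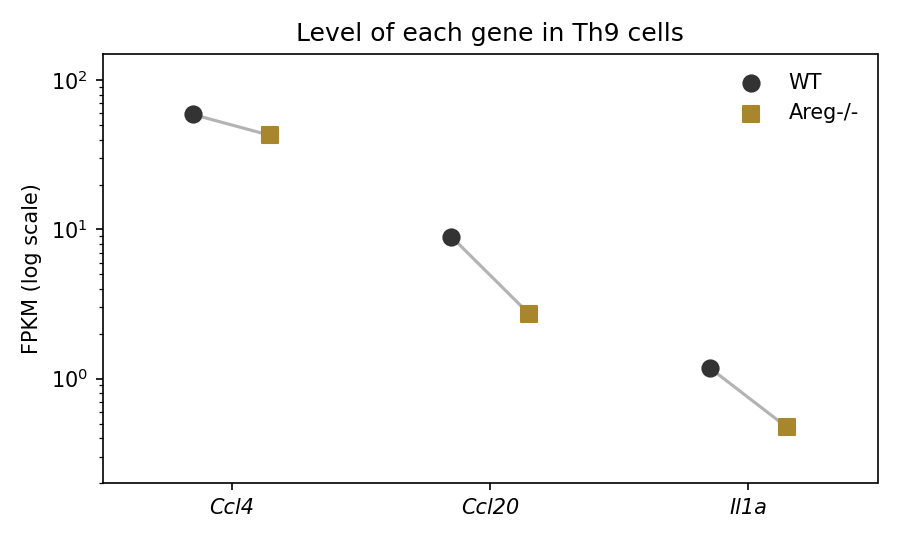
FPKM on a log scale for *Ccl4*, *Ccl20* and *Il1a*, with 1 point per genotype (circle, WT; square, *Areg*-/-) that combines 2 samples and has no error bar. The order of the genes is the same in both genotypes, and the line of *Ccl20*, from 8.96 to 2.73 FPKM, is the steepest.

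The order of the levels, *Ccl4* above *Ccl20* above *Il1a*, was thus the same in both genotypes, and the distances between them were not. *Ccl4* was 6.58 times as high as *Ccl20* in WT cells and 15.6 times as high in *Areg*-/- cells. *Ccl20* was 7.57 times as high as *Il1a* in WT and 5.79 times in *Areg*-/- cells. Whether neighbouring levels differ beyond the spread between samples is unknown. Summed over the 3 genes, the level was 69.1 FPKM in WT and 45.9 FPKM in *Areg*-/- cells. *Ccl4* made up 85.3% of the WT sum and 70.1% of the difference between genotypes, although its ratio was the closest to 1.

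The place of each gene among the 159 lower genes of the table depended on the measure. By log2 ratio *Ccl20* was at position 18, *Il1a* at 27 and *Ccl4* at 141, with 18 lower genes that had a ratio closer to 1 than *Ccl4*. By the difference in FPKM the order was another one, with *Ccl4* at position 21 and a difference of -16.3 FPKM, *Ccl20* at 65 with -6.23 FPKM and *Il1a* at 151 with -0.712 FPKM. By level in WT, *Ccl4* was at position 50 of all 515 listed genes, *Ccl20* at 227 and *Il1a* at 445. In *Areg*-/- cells the positions were 78, 405 and 505, so that *Ccl20* moved furthest down.

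**Figure D2:**
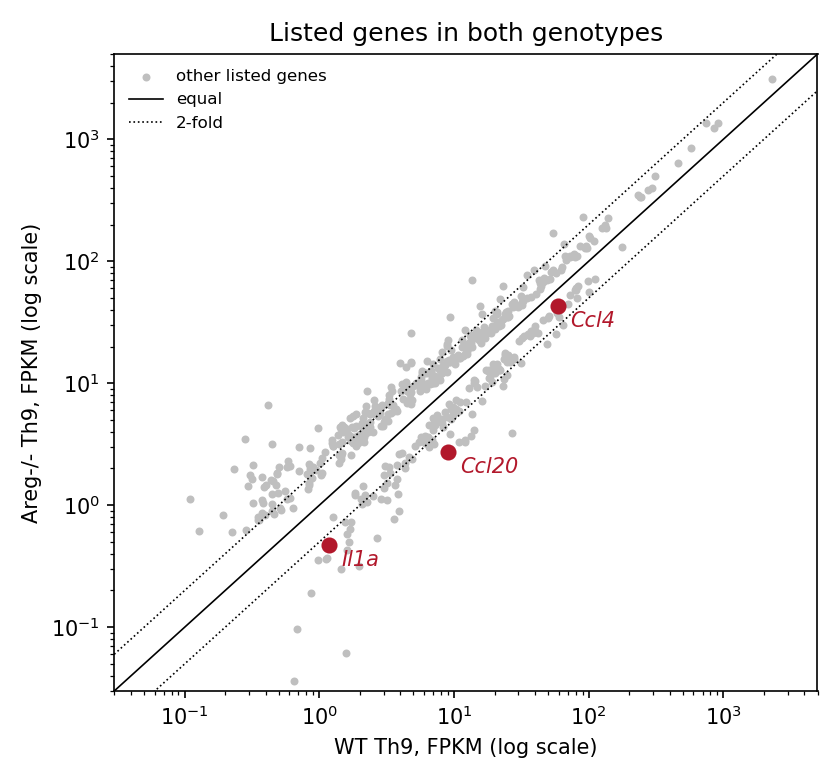
FPKM in *Areg*-/- against WT Th9 cells for the 515 listed genes, both axes on a log scale, with a solid line at equal values, dotted lines at 2-fold and the 3 genes in red. *Ccl20* and *Il1a* lie below the lower dotted line and *Ccl4* between it and the line of equal values, next to the empty band of genes that are not listed.

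*Il1a* was close to the lower end of the values in the table. With the longest annotated transcript of 1974 bases, its FPKM corresponds to about 2.34 fragments per 1000000 mapped fragments in WT and 0.931 in *Areg*-/- cells. For *Ccl20*, with 1417 bases, the numbers were 12.7 and 3.87, and for *Ccl4*, with 660 bases, 38.9 and 28.2. These conversions assume the longest transcript and are approximate, but on this scale the *Il1a* ratio rests on the fewest fragments. With 1 FPKM added to both values the log2 ratio of *Il1a* was -0.57, no longer beyond 2-fold. That of *Ccl20* was then -1.42 and that of *Ccl4* -0.46.

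The listed genes had a median log2 ratio of 0.62, since 356 of the 515 were higher in *Areg*-/- cells. Relative to this median, *Ccl20* was at -2.34, *Il1a* at -1.95 and *Ccl4* at -1.09. When both genotypes were scaled to the same total FPKM over the listed genes, the log2 ratios were -2.14, -1.76 and -0.89. The members were lower on each of these scales, but both move every ratio down and could not have reversed them. *Ccl4* was beyond 2-fold only after centring on the median, where all 159 lower genes of the table are beyond it.

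**Figure D3:**
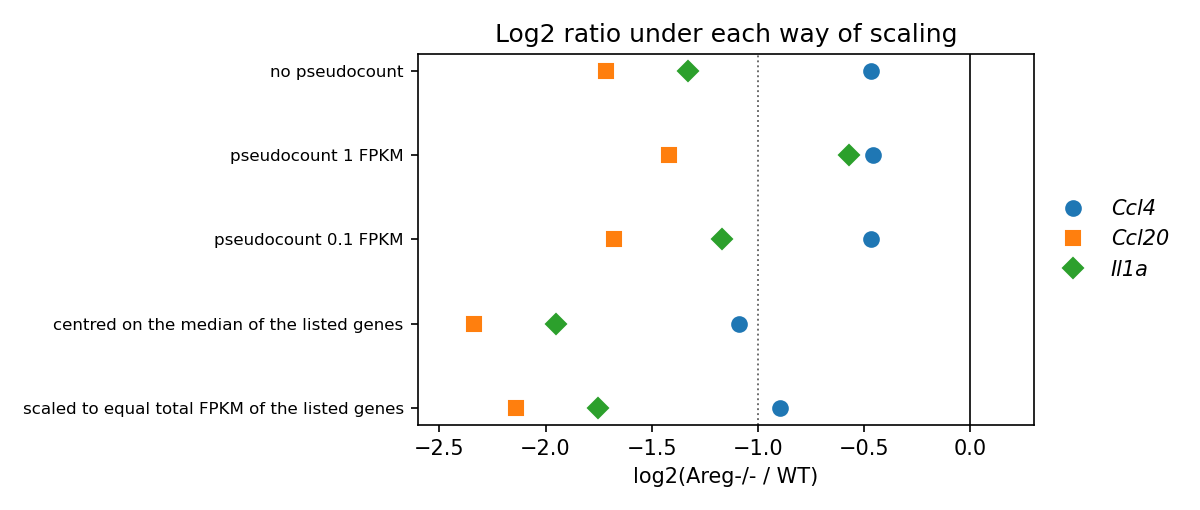
Log2 ratio of *Areg*-/- over WT for *Ccl4*, *Ccl20* and *Il1a* without a pseudocount, with 1 or 0.1 FPKM added, relative to the median of the listed genes, and scaled to equal total FPKM, with a dotted line at 2-fold lower. *Ccl20* is the lowest of the 3 genes in each row, and *Il1a* moves to -0.57 when 1 FPKM is added.

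Among ligands of the chemokine family, 38 symbols were looked for and 3 were listed, *Ccl20*, *Ccl4* and *Ccl22*, all of them lower, as were 30.9% of the listed genes. As *Ccl20* and *Ccl4* were picked for being lower, *Ccl22* is the only one of these ligands that the choice of genes did not fix. *Ccl22* encodes a ligand of CCR4, a receptor of Th2 cells and regulatory T cells. It had 6.93 FPKM in WT cells and 4.12 in *Areg*-/- cells, a log2 ratio of -0.75, which is between those of *Ccl20* and *Ccl4*. Of the 24 receptor symbols 2 were listed, and both were higher by more than 2-fold, a limit that 25.2% of the listed genes passed in this direction. *Ccr2*, the receptor gene for CCL2 on inflammatory monocytes and some T cells, had 0.378 FPKM in WT cells and 1.69 in *Areg*-/- cells, a log2 ratio of 2.16. *Cxcr4*, the receptor gene for CXCL12, had 6.26 and 15.1 FPKM, a log2 ratio of 1.27. The directions of *Ccl22*, *Ccr2* and *Cxcr4* were the same after centring on the median and after scaling to equal totals. Neither scaling could have turned *Ccl22* higher. With 1 FPKM added the log2 ratio of *Ccr2* was 0.97, no longer beyond 2-fold. That of *Cxcr4* was 0.65 after centring and 0.85 after scaling, both within 2-fold. *Ccr6* and *Ccr4*, whose products bind CCL20 and CCL22, were not listed and were not analysed here.

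In the IL-1 family, *Il1a* was the only listed ligand gene of 10. Of 11 receptor and binding protein genes the only listed one was *Il1r2*, which encodes a decoy receptor that binds IL-1 without signalling. *Il1r2* had 0.490 FPKM in WT cells and 1.27 in *Areg*-/- cells, a log2 ratio of 1.37, opposite in direction to *Il1a* and at a similarly low level. With 1 FPKM added, the log2 ratio of *Il1r2* was 0.61, so that it too was no longer beyond 2-fold. None of 14 genes for signalling through IL-1 receptors or for processing of IL-1 were listed.

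Of 24 genes of the NF-κB pathway 3 were listed. *Nfkbid*, which encodes the nuclear IκB protein IκBNS, had 20.5 FPKM in WT cells and 13.4 in *Areg*-/- cells, a log2 ratio of -0.62. *Rel*, which encodes the subunit c-Rel, had 14.2 and 10.6 FPKM, a log2 ratio of -0.42. *Bcl3*, which encodes another nuclear IκB protein, was higher, with 43.2 and 59.0 FPKM and a log2 ratio of 0.45, which turned to -0.17 after centring on the median. None of the 3 was beyond 2-fold without a scaling. Relative to the median, *Nfkbid* at -1.24 and *Rel* at -1.05 were beyond it, and *Nfkbid*, at -1.05, also after scaling to equal totals.

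Of 17 other inflammatory cytokine genes 5 were listed, 4 lower and 1 higher, with a median log2 ratio of -0.77 against 0.62 over all listed genes, of which 30.9% were lower. *Il3*, a growth factor of mast cells and basophils, had 14.0 and 4.16 FPKM, and its log2 ratio of -1.76 was close to that of *Ccl20*. *Csf2*, the gene of GM-CSF, had 16.1 and 7.14 FPKM, a log2 ratio of -1.17. *Tnf* had 28.1 and 16.4 FPKM, a log2 ratio of -0.77. *Lta*, the gene of lymphotoxin-α, named after its values were seen, was the most abundant of the 5, with 98.1 and 68.9 FPKM, and had the smallest log2 difference of them, -0.51. *Il21* was the gene of this list that was higher, with 27.8 and 46.5 FPKM. Both *Il3* and *Csf2* were thus lower by more than 2-fold, as were 9.90% of the listed genes. Cytokine genes outside this list, named after their values were seen, went both ways. By log2 ratio *Il24* at 0.59 and *Il16* at 0.50 were higher, and *Il2* at -2.79 and *Il17d* at -1.02 were lower. The count of 4 lower and 1 higher therefore holds for this list alone. Of 11 genes for EGFR, its relatives and their ligands, 0 were listed.

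**Figure D4:**
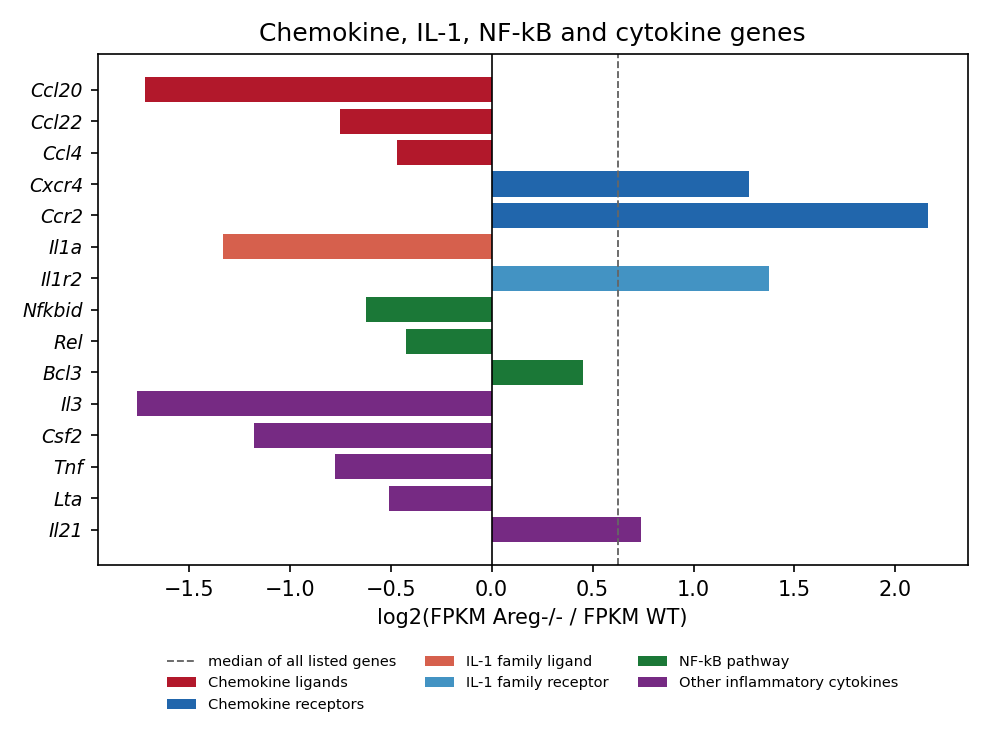
Log2 ratio of *Areg*-/- over WT for each listed gene of the chemokine, IL-1, NF-κB and cytokine lists, with 1 value per gene drawn as a bar from 0, colours by list and a dashed line at the median of the listed genes, 0.62. Bars of the chemokine ligands, *Il1a* and *Il3* point to lower values, and those of *Cxcr4*, *Ccr2* and *Il1r2* to higher values.

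The genes with the most similar pair of values were sought by distance over both log2 FPKM values. Nearest to *Ccl20* was *Jaml*, a junctional adhesion molecule of leukocytes, with 10.8 FPKM in WT and 3.29 FPKM in *Areg*-/- cells and a distance of 0.38. *Jaml* is also next to *Ccl20* by log2 ratio, with -1.72, and was followed by *Bmp2k* and *Gm21887* in distance. Nearest to *Ccl4* was *Cd81*, a tetraspanin, with 61.9 and 44.7 FPKM and a distance of 0.096, followed by *Marcksl1* and *Gm19585*. Nearest to *Il1a* was *C1ql3*, with 1.13 and 0.369 FPKM and a distance of 0.36, followed by the pseudogene *Akt2-ps* and the glutamate transporter gene *Slc1a2*. The likeness is over 2 combined values and says nothing on shared control.

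By log2 ratio alone, *C1ql3* followed *Ccl20* at -1.62. *Il1a* lay between *Shtn1* at -1.37 and *Cavin3* at -1.30, with 8 listed genes between *Ccl20* and *Il1a*. *Ccl4* lay between *Gpatch4* and *Slf1*, both at -0.47 after rounding.

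In the genome, *Ccl4* lies in a cluster of CC chemokine genes. Within 1 Mb of it are *Ccl3*, *Ccl5*, *Ccl6* and *Ccl9*, none of which were listed. The only listed gene of the 81 annotated within that distance was *Slfn2*, of the Schlafen family, with 9.84 FPKM in WT and 6.39 FPKM in *Areg*-/- cells, a log2 ratio of -0.62. *Il1b*, which encodes IL-1β, lies within 1 Mb of *Il1a* and was not listed, nor was any other of the 66 genes annotated there. None of the 48 genes within 1 Mb of *Ccl20* were listed. A gene that is not listed was not analysed here, which does not say that it was unchanged.

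Some of these genes are also made by cells other than CD4+ T cells, and markers of such cells were looked for in the table. By the methods, the cultures were started from sorted naïve cells positive for CD4 and CD62L. The purity of the cultures that were sequenced could not be checked from these values. Of 9 myeloid and 5 B cell markers 0 were listed, but a marker that is not listed may still be expressed. Of 7 markers of CD8+ T cells and NK cells, which produce CCL4, 2 were listed, with a summed level of 3.57 FPKM in WT and 7.72 FPKM in *Areg*-/- cells. *Cd8a* had 2.13 and 3.32 FPKM and *Klrd1* 1.44 and 4.40 FPKM, both higher in *Areg*-/- cells, as were 356 of the 515 listed genes. The log2 ratio of *Cd8a*, 0.64, was close to the median of the listed genes, 0.62, and that of *Klrd1* was 1.62. Other genes of such cells, outside the marker list, were named after their values were seen and did not all move the same way. *Gzma*, *Prf1*, *Klrc1*, *Klrk1* and *Klra7* were higher too, whereas *Tbx21* went down, at a log2 ratio of -0.52. Of 4 neutrophil markers *Ly6g* was listed, with 0.279 FPKM in WT and 3.51 FPKM in *Areg*-/- cells. The part of other cells in the values of *Ccl20*, *Ccl4*, *Il1a* and *Ccr2* was not tested.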

How the data were processed

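RNA of 4 samples, 2 per genotype, was sequenced, and samples were assigned by their genotype labels. Reads were checked with FastQC, trimmed, aligned with TopHat2 and Bowtie2 to GRCm38 and compared with Cuffdiff, versions of the last 3 not being given in the sources used here. The authors deposited FPKM values from Cuffdiff, each combining both samples of a genotype. The authors' own fold changes, test statistics, p-values and q-values in the table were not used. All 515 listed genes carry the authors' mark of significance, and 0 have an FPKM of 0.

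Log2 ratios of *Areg*-/- over WT were computed from both FPKM values without a pseudocount. No test could be run on 1 value per genotype, and a ratio beyond 2-fold is a description. Gene lists were counted by symbol, and 0 older symbols of their genes were in the table. Genes named were the members, listed genes of the chemokine, IL-1 and NF-κB lists, up to 4 of other lists, the 3 nearest genes, rank neighbours and listed genes within 1 Mb. Some others were named after their values were seen. Members and lists were chosen with earlier results of these data known. Gene models and transcripts are from GENCODE M21 on GRCm38, and promoters from RefSeq on GRCm38.p6. Alternatives were pseudocounts of 1 and 0.1, centring, scaling to equal totals, a minimum of 1 FPKM and other fold limits. The log2 ratios and the counts of lower and higher genes were tested on simulated data, and the other calculations were not. Python 3.11.15, numpy 2.4.6, pandas 2.3.3 and matplotlib 3.10.9 were used.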

Additional observations from a re-analysis of the deposited data

How the results depend on the processing

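No paired analysis was possible because each genotype has 1 value that merges its samples, and for the same reason leaving out a replicate and tests between genotypes were not run. *Ccl20*, *Ccl4* and *Il1a* stayed lower under each alternative run. This was fixed in advance, as a pseudocount keeps the sign of a ratio and both scalings move every ratio down. Log2 ratios of *Ccl20* went from -1.71 to -1.42 with 1 FPKM added, -1.68 with 0.1 FPKM added, -2.34 when centred on the median and -2.14 when scaled to equal totals. Those of *Il1a* went from -1.33 to -0.57, -1.17, -1.95 and -1.76, and those of *Ccl4* from -0.47 to -0.46, -0.47, -1.09 and -0.89, in the same order. A pseudocount shrinks the ratio of low genes by its construction, and both scalings take 1 value from every gene, 0.62 for centring and 0.43 for equal totals. Of the members, 2 were lower by more than 2-fold, 0 by more than 4-fold, and 1 with 1 FPKM added. The number of listed genes lower by more than 2-fold was 51, against 109 at 1.5-fold, 10 at 4-fold, 23 with 1 FPKM added, 159 after centring and 112 after scaling. Counting members or listed genes under pseudocounts and scalings was chosen after seeing the data. With 1 FPKM added, the rank of *Il1a* among the lower genes went from 27 to 95. The chemokine genes stayed at 3 lower and 2 higher with the wider list, after centring and with a minimum of 1 FPKM. The wider list added no listed gene, so its counts could not differ. Centring could only have turned higher genes lower. As no depth or spread is known, no limit by depth could be computed.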
